A study of Danio rerio with 10 samples.

Results

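The 200 annotation IDs whose share of the reads fell most between 2 and 5 days post-fertilization (dpf) in WT zebrafish were described in all 10 libraries of an ebf3a mutant series. They were 200 of 36351 IDs listed. IDs were ranked by log2((mean CPM at 5 dpf + 0.5)/(mean CPM at 2 dpf + 0.5)) over the WT libraries, where CPM is the count divided by the library total and multiplied by 1000000, and the lowest 200 were taken. A stretch of 105 neighbouring ID numbers was left out by the rule, and none of these would have been among the lowest 200. Members are called below by their rank in this list, with rank 1 the largest fall. The files do not pair these IDs with gene names, so no function, chromosome or sequence is given for a member.

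The series compared homozygous (−/−) and heterozygous (+/−) carriers of a CRISPR/Cas9 frameshift allele of ebf3a with WT (+/+) fish. Polyadenylated RNA was sequenced at 2 dpf from 2 −/−, 2 +/− and 2 WT libraries, each a pool of 15 to 20 embryos, and at 5 dpf from 2 −/− and 2 WT libraries, each a pool of 10 to 12 animals. The titles and age labels of the later libraries give 5 dpf, which is used here, while their extraction protocol names 6 dpf. A replicate is a pool, sorted by genotype from the posterior of each fish. The dissection was labelled upper body with eyes at 2 dpf and head with eyes at 5 dpf. The study's methods instead name the anterior part of the body and describe no difference in dissection between the ages. By the labels, age, dissected tissue, pool size and any difference between collections cannot be told apart. The state of the paralog ebf3b in these pools was not given in the sources used here.

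Ebf3 belongs to the Collier/Olf/Ebf family of helix-loop-helix transcription factors, which take part in the differentiation of neurons and of muscle in vertebrates. Between these ages a zebrafish embryo hatches and becomes a free-swimming larva. Many precursor cells stop dividing, the retina and brain begin to work, the cartilage of the head forms and yolk is used up. In RNA taken from whole pieces of tissue, fewer cells of a type and less RNA per cell cannot be told apart.

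Library totals lay between 30070283 and 47797511 counts, and 26088 to 28326 IDs had a count. All replicate pairs differed beyond sampling noise, and more so at 5 dpf. Chi-square per ID, which compares the counts of a pair with equal shares, was 14.0 (−/−), 10.2 (+/−) and 7.17 (WT) at 2 dpf. At 5 dpf it was 53.2 (−/−) and 51.4 (WT). The study also described its 5 dpf samples as less consistent. Neither the genotype labels, through the level of ebf3a, nor the dissected tissue, through its marker genes, could be checked, because both need gene names.

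The member with the largest fall was LL0000039875. Its CPM at 2 dpf was 201 and 190 in the −/− libraries, 182 and 202 in the +/− libraries, and 186 and 187 in the WT libraries. At 5 dpf it was 0.841 and 0.747 in −/− and 1.12 and 0.349 in WT. The 6 libraries of 2 dpf lay close together, and every library of 5 dpf was far under all of them. The log2 ratio used by the rule was −7.24, and the same ratio over the −/− libraries, which the rule did not use, was also −7.24.

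Rank 2, LL0000020031, held more reads at 2 dpf than any other member. Its CPM was 15238 and 20402 in −/−, 23909 and 19690 in +/−, and 21777 and 19739 in WT. At 5 dpf the −/− libraries held 235 and 209 CPM and the WT libraries 274 and 198 CPM. The genotypes overlapped at 5 dpf, while at 2 dpf −/− replicate 1 lay under the other 5 libraries. The log2 ratio was −6.46 in WT and −6.33 in −/−.

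The ratios then became smaller quickly along the list. Rank 10 had a ratio of −4.72, rank 50 of −3.28 and rank 100 of −2.73. The median of the 200 was −2.72 (quartiles −3.24 and −2.49), beside 0 over all IDs listed. All IDs listed include those without a count, whose ratio is 0 by the rule, so this is not the median of detected IDs. The ratios of the members chose them and are a description only. Just inside the limit, rank 200 went from 2529 to 501 CPM in WT, a ratio of −2.33 and a fall of 5.04-fold. Just outside it, the next ID went from 2.15 to 0.0261 CPM with a ratio of −2.33. With 0.5 CPM added to both means, an ID needed at least 2.02 CPM in WT at 2 dpf to enter the list, which 15808 IDs had, so the members were 1.27% of the IDs that could be chosen.

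**Figure D1:**
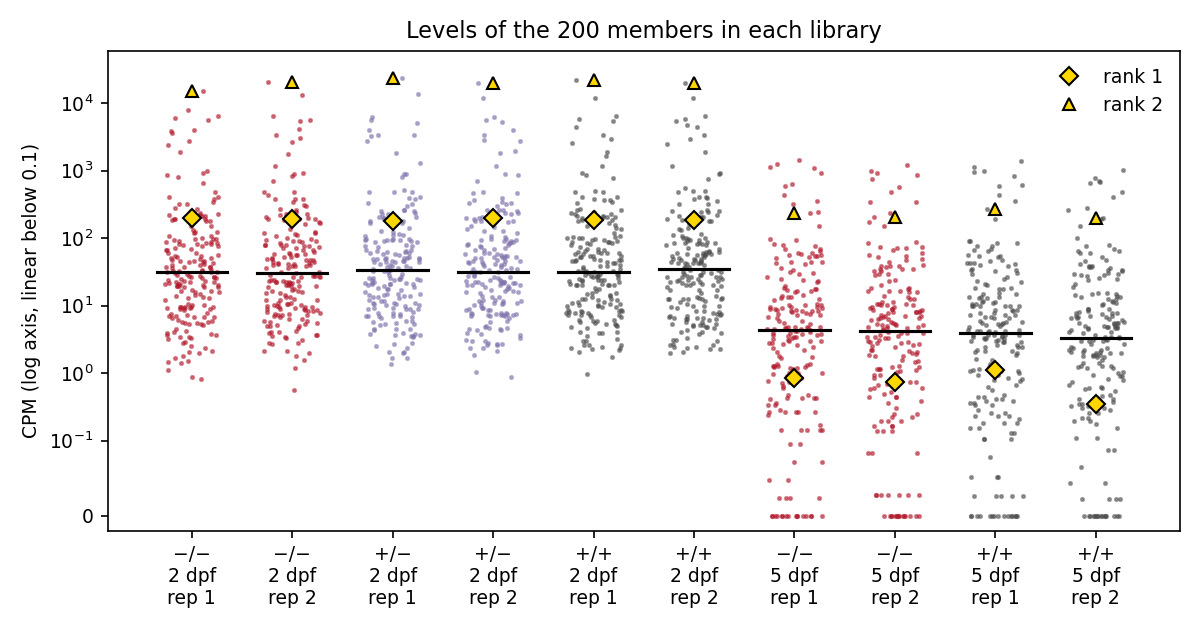
CPM of the members in each of the 10 libraries, on a log axis that is linear under 0.1 CPM so that values of 0 can be drawn. Each small point is a member in 1 library, coloured by genotype, the bar is the median over the members, and the yellow diamond and triangle are ranks 1 and 2. The median lay between 30.1 and 35.3 CPM in the 6 libraries of 2 dpf and between 3.37 and 4.3 CPM in the 4 libraries of 5 dpf.

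Together the members held a sizeable part of the 2 dpf libraries. Their summed CPM at 2 dpf was 76208 and 83191 in −/−, 90171 and 81934 in +/−, and 85281 and 86699 in WT, or 7.62% to 9.02% of a library. At 5 dpf it was 11135 and 9292 in −/− and 10257 and 7729 in WT, or 0.773% to 1.11%. The sums thus fell 7.80-fold between the group means in −/− and 9.56-fold in WT. The WT libraries had chosen the members, so a larger fall in WT is favoured by the choice. At 5 dpf the sums of the 2 genotypes overlapped. The −/− replicate 1 had the lowest sum at 2 dpf and +/− replicate 1 the highest, and the −/− and +/− ranges overlapped. Both −/− sums lay under both WT sums at 2 dpf, which the choice of members on WT also favours.

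A few members carried most of these reads. Ranks 2, 23, 181, 121 and 103 together held 54.7% to 61.8% of the members' CPM in a 2 dpf library, and without these 5 the sums were 34533 and 31809 in −/−, 35706 and 33177 in +/−, and 33777 and 37165 in WT. The 3 genotypes then overlapped. Rank 23 had 8077 and 13363 CPM in −/−, 13536 and 11955 CPM in +/−, and 12015 and 12093 CPM in WT at 2 dpf, and 683 to 916 CPM at 5 dpf. Like rank 2, it was low in −/− replicate 1 only. Rank 181 was even across the 2 dpf libraries at 6320 to 6534 CPM and had 1040 to 1465 CPM at 5 dpf. Gene lengths were not used here, so these values compare shares of reads between IDs and not levels per length.

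By WT level at 2 dpf, 12 members had at least 1000 CPM, 39 had 100 to 1000, 99 had 10 to 100 and 50 had under 10. The members were 9.84% of the 122 IDs in the highest class, 2.43% of 1606 in the next, 1.17% of 8453 in the next and 0.889% of the 5627 in the lowest that could be chosen. Thus 25.5% of the members had at least 100 CPM, beside 10.9% of all IDs that could be chosen. The median member had 32.8 CPM, beside 17.3 CPM for those IDs and 46.6 CPM for the 200 IDs that came next in the ranking. The median ratio in −/− was −2.42, −2.43, −2.64 and −2.74 from the highest to the lowest class. The added 0.5 CPM limits how negative the ratio of a low ID can be, so abundance in the list follows in part from the rule.

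Most members were reduced and not lost. At 5 dpf, 180 of the 200 had at least 1 count in all 4 libraries, and 9 had none in any. Among these 9, rank 4 had the most reads at 2 dpf, with 16.9 and 18.7 CPM in −/−, 21.8 and 15.4 CPM in +/−, and 21.2 and 25.1 CPM in WT. A count of 0 allows up to 3 counts over a group's 2 libraries, so this ID was at least 462-fold lower at 5 dpf in −/− and at least 650-fold lower in WT. For the other 8 the limits ran from at least 42.8-fold to at least 257-fold lower. These bounds cover counting error only.

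Whether the fall was also present without ebf3a was tested in the −/− libraries, which took no part in choosing the members. All 200 members passed the count filter and all 200 were lower at 5 dpf in edgeR's quasi-likelihood test at a Benjamini-Hochberg adjusted p under 0.05. Of the 23358 IDs tested, 62.0% were called, 28.9% lower and 33.1% higher. The members' median log2 fold change was −3.13 (quartiles −4.18 and −2.62), beside 0.11 over all IDs tested. The 12 members with no count in −/− at 5 dpf had bounds of −5.42 or lower. Setting them at these bounds therefore could not move the median. LL0000039875 changed by −8.13 (SE 0.18, adjusted p = 6.65e-07) and LL0000020031 by −6.53 (SE 0.26, adjusted p = 2.83e-06) on the log2 scale. The smallest change was that of rank 167, at −1.97. For all 200 members, both −/− libraries of 5 dpf also lay under all 4 of the −/− and +/− libraries of 2 dpf, as did 25.1% of the 31029 IDs with a count in these libraries.

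The order of the falls was similar in the mutants but not the same. A ranking of the −/− libraries by the same ratio had 156 members among its lowest 200, or 78.0% of each list, and 196 among its lowest 400. The last member in that ranking, at place 706, was rank 167. Its CPM at 2 dpf was 9.51 and 7.48 in −/−, 7.13 and 7.06 in +/−, and 7.39 and 7.05 in WT, and at 5 dpf it was 3.65 and 1.22 in −/− and 1.64 and 0.196 in WT. The genotypes overlapped at 5 dpf, where replicates of the same genotype lay far apart.

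The median ratio of the members was −2.60 in −/−, and 157 of the 200 had a less negative ratio in −/− than in WT, with a median difference of 0.22. Choosing on WT favours a more negative ratio in WT. When the 200 IDs were instead chosen by the −/− libraries, the median was −2.62 in −/− and −2.68 in WT, and the WT ratio was less negative for 83 of them. By the medians the WT ratio was thus the more negative under either choice. The cause was not tested. The 6 members whose fall was smaller in −/− by the most were ranks 7, 37, 9, 11, 5 and 45, and all but the last belong to the set of unevenly read members described below. In the other direction, rank 172 had a ratio of −2.42 in WT and −4.38 in −/−, and rank 31 of −3.53 in WT and −4.91 in −/−. At 5 dpf rank 31 had 0.024 and 0.194 CPM in −/− and 0.182 and 1.26 CPM in WT, so the genotypes overlapped.

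**Figure D2:**
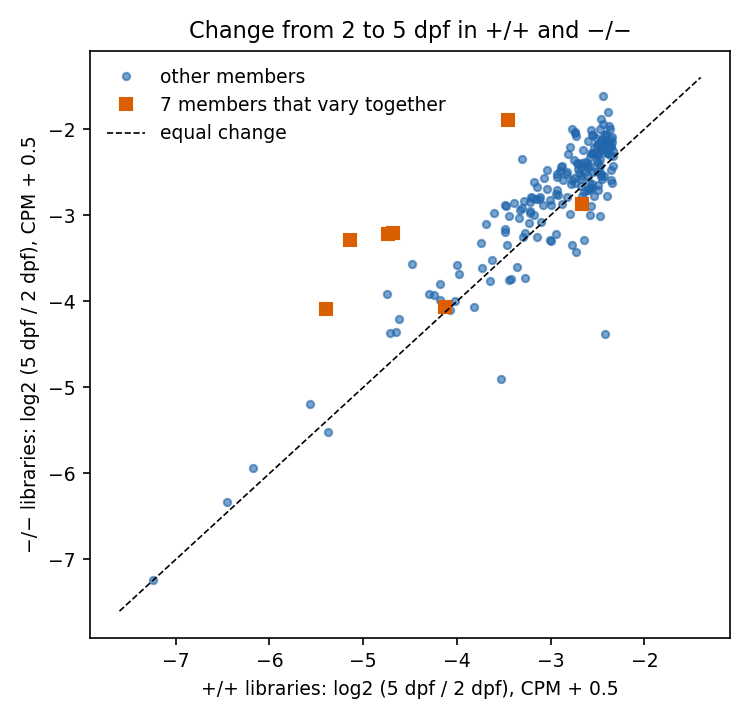
Log2 ratio of 5 dpf to 2 dpf in the −/− libraries (vertical axis) against the same ratio in the WT libraries that chose the members (horizontal axis), 1 point a member, with the line of equality. Points over the line fell less in −/−, as 157 of 200 did, and the coloured points are the 7 members that varied with rank 7, of which ranks 7, 37, 9, 11 and 5 lie farthest over the line.

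Among the 6 libraries of 2 dpf the members varied about as much as other IDs, apart from a small set. The median ratio of the highest to the lowest library was 1.35, beside 1.29 over the 15785 IDs with at least 2.02 CPM. The ratio was 2 or more for 22 members (11%), beside 5.14% of these IDs. It was 4 or more for 9 members, while only 27 of these IDs (0.171%) reached it.

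Of those 9, 7 rose and fell together. They were ranks 5, 7, 9, 11, 19, 37 and 110, grouped after their values were seen as the members whose CPM had a correlation of at least 0.9 with rank 7 over the 6 libraries. Rank 7 had 3845 and 839 CPM in −/−, 3434 and 1963 CPM in +/−, and 1627 and 4692 CPM in WT. This correlation was found for 3.5% of the members and for 0.405% of the IDs with at least 2.02 CPM. All 7 were lowest in −/− replicate 2, 5 of them were highest in WT replicate 2 and the other 2 in −/− replicate 1. Rank 7 itself was lowest in −/− replicate 2 and highest in WT replicate 2, so the shared pattern follows largely from the grouping. For these 7, pools of the same genotype differed more than the genotypes did. The summed CPM of the 7 was 4821 and 1003 in −/−, 4103 and 2297 in +/−, and 1855 and 5487 in WT at 2 dpf.

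At 5 dpf the summed CPM of these 7 was 376 and 183 in −/− and 102 and 126 in WT. For 5 of the 7, both −/− libraries lay over both WT libraries. Over all members this was so for 33 of 200 (16.5%), and over the 30174 IDs with a count at 5 dpf for 11.4%. Rank 7 had 327 and 152 CPM in −/− and 76.1 and 102 CPM in WT, a log2 difference of 1.42 (SE 0.38) that did not pass edgeR's test over all IDs (adjusted p = 1.00). The WT libraries had chosen the members for being low at this age.

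**Figure D3:**
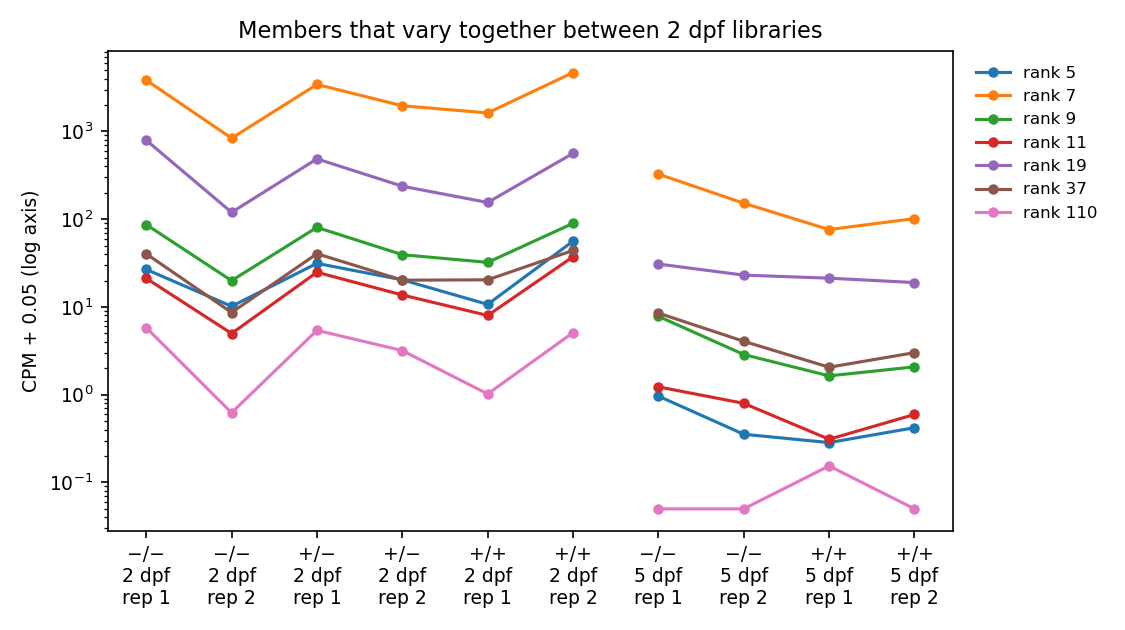
CPM (with 0.05 added, log axis) of the 7 members that varied with rank 7, in the 10 libraries. Each line joins the values of 1 member within an age, and at 2 dpf all 7 lines are lowest at −/− replicate 2.

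A larger and milder set followed rank 2. With the same log2 measure and limit of 0.9 it held 18 members, ranks 2, 15, 21, 22, 23, 34, 43, 54, 57, 75, 84, 107, 116, 127, 130, 153, 163 and 187. All 18 were lowest in −/− replicate 1, and 14 were highest in +/− replicate 1. Rank 2 itself was lowest and highest in these libraries, so the shared pattern follows largely from the grouping. Their summed CPM was 28859 and 40780 in −/−, 45001 and 38286 in +/−, and 40776 and 38760 in WT at 2 dpf, with highest-to-lowest ratios of 1.1 to 2.35. A correlation of at least 0.9 with rank 2 was found for 1.34% of the IDs with at least 2.02 CPM and for 9.0% of the members. These correlations rest on 6 libraries that also share depth and scaling, and are given as a description.

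More widely, −/− replicate 1 was the lowest of the 6 libraries for 67 members (33.5%) and −/− replicate 2 for 51 (25.5%), beside 17.8% and 22.1% of the IDs. The +/− libraries were lowest for 33 and 26 members (16.5% and 13.0%), beside 23.2% and 11.2% of the IDs. The WT libraries, which chose the members for being high at this age, were lowest for 6 and 17 (3.0% and 8.5%). Their shares of the IDs were 12.3% and 13.5%.

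The remaining pair of members with a ratio of 4 or more were ranks 95 and 172. Rank 172 had 9.51 and 10.3 CPM in −/−, 1.36 and 11 CPM in +/−, and 2.36 and 2.01 CPM in WT at 2 dpf, and no count at 5 dpf. Both −/− libraries and 1 of the +/− libraries were high. In edgeR's test the log2 difference between −/− and WT was 2.20 (SE 0.55, adjusted p = 0.0628), that between −/− and +/− 0.72 (SE 0.51, adjusted p = 0.616), and that between +/− and WT 1.48 (SE 0.56, adjusted p = 0.307), so none passed. Rank 95 had 0.831 and 4.11 CPM in −/−, 3.46 and 2.15 CPM in +/−, and 2.66 and 3.10 CPM in WT, with no separation of the genotypes.

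Whether the level of the members at 2 dpf depended on ebf3a was first asked between −/− and +/− libraries, which the rule did not use. Of the 200 tested, 1 member was called, which was lower, beside 0.617% of 22383 IDs (0.389% higher and 0.228% lower). The count of 1 was near this background. It was LL0000032563 (rank 135), with 33.0 and 31.2 CPM in −/−, 41.3 and 46.1 CPM in +/−, and 30.6 and 28.9 CPM in WT. It was highest in +/−, and the −/− and WT values lay close together. The log2 difference was −0.43 between −/− and +/− (SE 0.08, adjusted p = 0.0334, edgeR) and 0.56 between +/− and WT (SE 0.08, adjusted p = 0.0102, edgeR). Over the members the median log2 difference between −/− and +/− was −0.05 (quartiles −0.20 and 0.07), beside 0.00 over all IDs, and 191 of the 200 differed by less than 0.5. Leaving out a −/− or +/− library left 1 pool of that genotype, so such counts describe that pool. The pool left without −/− replicate 2 was −/− replicate 1, the lowest at 2 dpf for 33.5% of members. Without −/− replicate 2, 24 members were called, 3 higher and 21 lower, beside 1.72% of IDs, so the count near background did not hold without this library. The number was 6 without +/− replicate 1 (0.687% of IDs) and 2 without +/− replicate 2 (0.713%). It was 0 without −/− replicate 1 (0.33%), WT replicate 1 (0.304%) or WT replicate 2 (0.368%). The call of LL0000032563 in this comparison was kept only without +/− replicate 1, and its call between +/− and WT was lost without either WT library.

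Against WT at 2 dpf, 8 members were called in −/−, 1 higher and 7 lower, beside 1.62% of the IDs tested (0.871% higher and 0.746% lower). In +/−, 3 were called, 1 higher and 2 lower, beside 0.384% of the IDs (0.259% higher and 0.125% lower). The members had been chosen for high values in these WT libraries, so a lower value in the mutants is favoured by the choice. The same WT libraries serve as the control in each comparison. The median log2 difference was −0.07 in −/− and −0.01 in +/−, and 185 and 190 members differed by less than 0.5.

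The member higher in −/− was LL0000027153 (rank 25). It had 118 and 112 CPM in −/−, 96.6 and 107 CPM in +/−, and 88.3 and 84.7 CPM in WT, with the +/− libraries between the others. The log2 difference between −/− and WT was 0.43 (SE 0.06, adjusted p = 0.00198, edgeR). At 5 dpf it had 13.2 and 9.01 CPM in −/− and 7.19 and 4.82 CPM in WT, without overlap, and did not pass the test (0.88, SE 0.32, adjusted p = 1.00, edgeR). The call at 2 dpf was lost without WT replicate 2.

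The 7 lower in −/− were ranks 12, 13, 45, 98, 105, 119 and 133, with log2 differences from −0.25 to −1.06. Rank 45 had the largest, with 2.06 and 2.16 CPM in −/−, 3.81 and 3.01 CPM in +/−, and 4.94 and 3.98 CPM in WT (−1.06, SE 0.24, adjusted p = 0.0460, edgeR). Rank 13 had 239 and 223 CPM in −/−, 228 and 324 CPM in +/−, and 377 and 392 CPM in WT (−0.72, SE 0.10, adjusted p = 0.00169, edgeR). In both the WT libraries lay over all mutant libraries, and +/− replicate 1 of rank 13 was as low as −/−.

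Rank 105 was the only member called in both mutant genotypes against WT. It had 31.7 and 26.8 CPM in −/−, 32.3 and 34.7 CPM in +/−, and 47.3 and 45.8 CPM in WT. The log2 difference was −0.66 in −/− (adjusted p = 0.00118, edgeR) and −0.47 in +/− (adjusted p = 0.0361, edgeR). The +/− mean lay between the −/− and WT means for all 7 of these members. They were called for low −/− and high WT values, so a +/− mean between these is favoured by the choice. For ranks 119 and 133 the +/− means (339 and 180 CPM) were close to the −/− means (336 and 176 CPM). None of the 7 was called between −/− and +/− at an adjusted p under 0.05. Rank 87 was the other member lower in +/−, by −0.54 (adjusted p = 0.0460, edgeR). Leaving out a library of a compared genotype again left 1 pool of it. Without −/− replicate 2, 27 members were called in −/−, 3 higher and 24 lower, beside 2.11% of IDs. The number was 13 without +/− replicate 2 (2.43% of IDs), 5 without −/− replicate 1 (1.1%), 4 without WT replicate 1 (0.454%) and 2 without WT replicate 2 (0.437%). In +/− it was 10 without −/− replicate 1 (0.835% of IDs), 11 without −/− replicate 2 (0.944%), 6 without +/− replicate 1 (0.296%) and 9 without +/− replicate 2 (0.777%). It was 0 without WT replicate 1 (0.0257%) or WT replicate 2 (0.0728%). The −/− call of rank 13 was kept when any single library was left out. The −/− call of rank 45 was lost without any 1 of the −/− or WT libraries, and the +/− calls of ranks 87 and 105 without any 1 of the +/− or WT libraries.

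**Figure D4:**
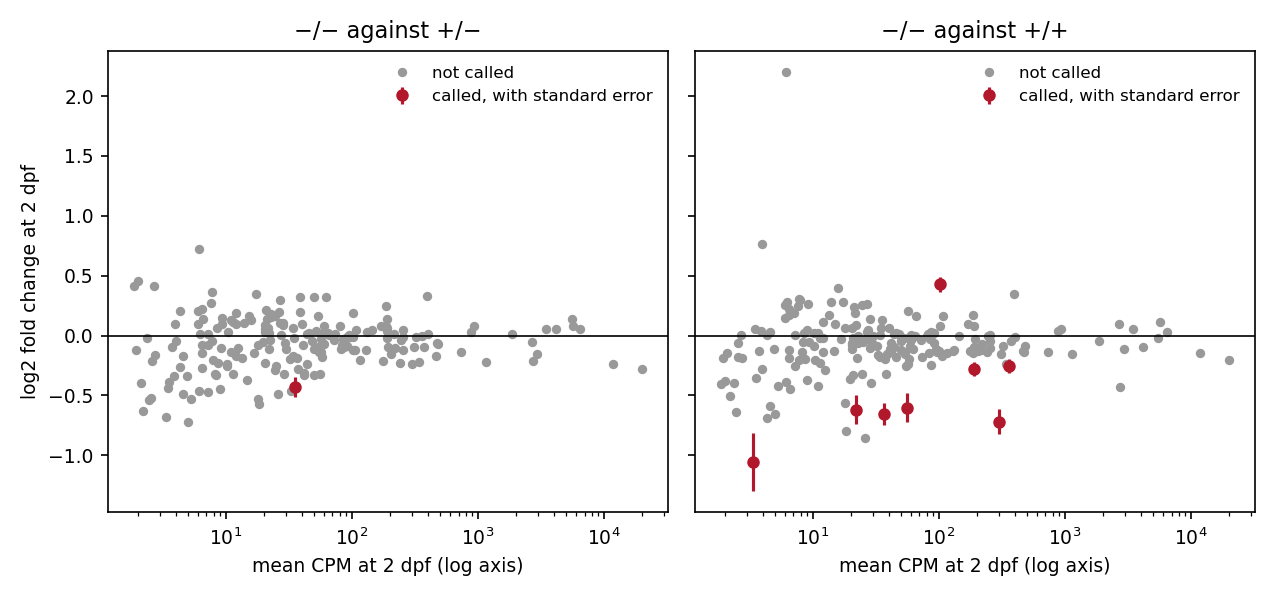
Log2 fold change of each member at 2 dpf in the edgeR fit (vertical axis) against its mean CPM at 2 dpf (horizontal axis, log), for −/− against +/− on the left and −/− against WT (+/+) on the right. Red points passed an adjusted p of 0.05 and carry their standard error (1 member on the left, 8 on the right), and the uncalled point at 2.20 on the right is rank 172.

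At 5 dpf, 171 members passed the count filter and none was called between −/− and WT, beside 0% of 23654 IDs in edgeR. As no ID at all was called, this does not show that the members were alike in the 2 genotypes. The replicates of this age also spread more than those of 2 dpf. At an unadjusted p under 0.05 there were 6 members, all higher in −/−, and 278 IDs in all, 76 of them higher. DESeq2 called 0 members and 2 IDs. The median log2 difference of the members was 0.13, beside −0.01 over all IDs tested, and 125 of the 171 were higher in −/−. The WT libraries had chosen the members for being low at this age, so a higher value in −/− is favoured by the choice. The WT replicates themselves differed over the members at this age, with 132 of the 200 higher in replicate 1 (66.0%, beside 46.9% of IDs) and a median log2 ratio between the replicates of 0.24, beside −0.03 over all IDs. In −/− 122 were higher in replicate 1, with a median log2 ratio of 0.08. Over 19916 IDs the deviations of same-numbered −/− and WT libraries had a correlation of 0.58 at this age. The replicate differences of the 2 genotypes are therefore not independent, and the test here did not use the replicate number.

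Members were spread over the ID numbers. Of 41 blocks of 1000 ID numbers, 40 held at least 1 member and none held more than 12. Counting members no more than 10 numbers apart as neighbours, 39 of the 200 (19.5%) had another member beside them, in 17 runs. The share was 19.0% for the 200 IDs next in the ranking, 16.5% for the 200 chosen on −/− and 48.5% for the 200 IDs that rose most. The share for 200 IDs drawn without regard to their ratio was not computed. Whether 19.5% is more or less than such a draw would give is therefore not said. Whether neighbouring numbers are neighbouring genes was not given in the sources used here.

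The longest run held 5 members, ranks 173, 44, 156, 185 and 166, within 24 listed IDs, and the other 19 IDs of that span had ratios up to 1.45. A run of 3, ranks 103, 200 and 121, held abundant IDs, with WT means of 5770, 2529 and 5485 CPM at 2 dpf. It lay within 15 listed IDs, of which the highest ratio was 2.20. Ranks 159, 165 and 198 were consecutive IDs, with WT means of 264, 1910 and 876 CPM and ratios of −2.46, −2.45 and −2.34 in WT and −2.15, −2.23 and −2.43 in −/−. Fully consecutive members were otherwise only the pairs of ranks 154 and 69 and of ranks 96 and 78. The 3 runs of 3 or more held none of the members called between genotypes. Only 10 members were called in any genotype comparison at 2 dpf, too few for this absence to be informative. Rank 105, 1 of these 10, was in a run of 2 with rank 93. Reads of near-identical or overlapping neighbours can be divided differently by the counting, and its strand setting was not given in the sources used here.

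**Figure D5:**
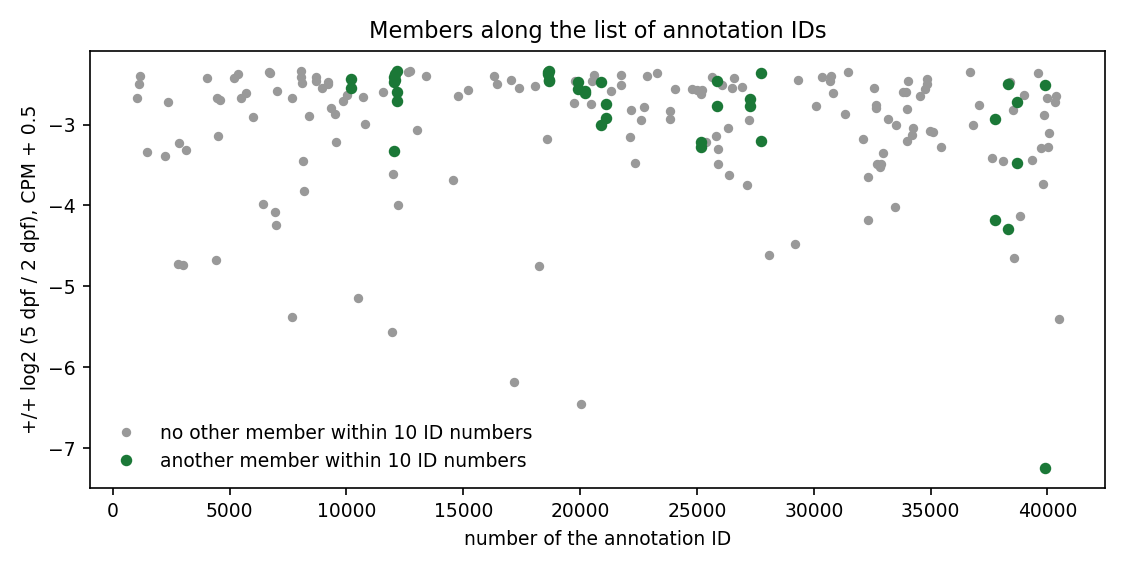
Log2 ratio of 5 dpf to 2 dpf in WT for each member (vertical axis) by its ID number (horizontal axis), with the 39 members that had another member no more than 10 numbers away in colour. Members were found in 40 of the 41 blocks of 1000 numbers, and the coloured points are scattered among the others.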

How the data were processed

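Raw counts of reads per annotation ID were deposited by the authors for each of the 10 libraries, without normalization. Per the labels and the study's methods, reads were aligned to GRCz11 with STAR (2.7.3a in the submitters' processing notes) and counted on the Lawson Lab annotation. The strand setting of the counting was not given in the sources used here.

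Each library was scaled to CPM (count divided by the library total, times 1000000) for ranking and description. Tests used edgeR 4.0.16 in R 4.3.3 (TMM scaling, filterByExpr, quasi-likelihood test, Benjamini-Hochberg adjustment over all IDs tested, calls at an adjusted p under 0.05). Separate fits were made of the −/− libraries of both ages, of the 3 genotypes at 2 dpf and of the genotypes at 5 dpf. Scripts were tested on simulated data. Groups came from the sample labels. Alternatives were DESeq2 1.42.0, its size factors, other count filters, a replicate block, 1 fit of all groups, other pseudocounts and leaving out each library.

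Members and comparisons were chosen with earlier results of these data known. The groups that varied with ranks 2 and 7 and the members described for their spread were chosen after their values were seen. The rule for named IDs was the 2 lowest ratios and, in each genotype comparison, the 2 largest called rises and falls with at least 1 CPM and no overlap. It chose ranks 1, 2, 13, 25, 45, 87, 105 and 135. As no ID had a gene name, only ranks 1, 2, 25 and 135 are printed by ID, and the others are given by rank. Labels do not say that replicates came from separate crosses, so p-values measure the spread between these pools.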

Additional observations from a re-analysis of the deposited data

How the results depend on the processing

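The fall in −/− was called in 199 or 200 members under every alternative run, except that with at least 10 counts in every library 159 members were tested and all 159 were called. Library-size scaling put the median −/− age ratio of all tested IDs at 0.26 and TMM at 0.11, and that of the members at −2.60 and −2.75. Membership depended on the pseudocount, with 118 members kept at 0.1 CPM and 117 at 5 CPM, and 171 to 192 when single libraries were left out. The mean summed CPM of all members was 79700 (−/−), 86052 (+/−) and 85990 (WT) at 2 dpf and 10214 (−/−) and 8993 (WT) at 5 dpf. In the same order it was 33171, 34442, 35471, 5674 and 4984 without the 5 highest members, and 113215, 119756, 120449, 19339 and 17179 over the 200 IDs chosen at 5 CPM. With TMM the mean sum of all members at 2 dpf was 84034 (−/−), 89963 (+/−) and 89963 (WT). The genotype counts were less stable. Between −/− and +/− the count was 1, with 2 by DESeq2 (1.09% of IDs), 26 without a filter (1.96%), 0 in a fit of all 5 groups (0%) and 0 to 24 when single libraries were left out. Between −/− and WT at 2 dpf it was 8, with 21 without a filter (3.01% of IDs), 0 with all groups (0%) and 2 to 27 when single libraries were left out. Between +/− and WT it was 3, with 11 by DESeq2 (1.09% of IDs), 22 without a filter (1.59%), 0 with all groups (0.00403%) and 0 to 11 when single libraries were left out. The cause was not tested. With the replicate block these counts were 0 (0.491% of IDs), 5 (1.35%) and 1 (0.228%), the −/− age count was 200, and at 5 dpf 0 members but 10 IDs were called. The labels do not say what a replicate number shares. Over 19916 IDs, the deviations of same-numbered libraries had a correlation of 0.58 between −/− and WT at 5 dpf and of −0.03 to 0.05 in the other group pairs. Over the members it was 0.32 between −/− and WT at 5 dpf. At 2 dpf it was −0.65 between −/− and WT and −0.35 between +/− and WT. In the remaining group pairs it was −0.18 to 0.17 over the members. At 5 dpf the same-numbered −/− and WT libraries thus shared deviations. What they shared was not tested, and the main tests used no pairing. Of 104 recomputed log2 fold changes of the named IDs, 73 kept their call, 31 lost it and 0 reversed. All of those lost were genotype differences, while the age changes of ranks 1 and 2 kept their call throughout. Every genotype call of a named ID was lost in the fit of all 5 groups.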

Other observations

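Outside the members, 57 IDs with at least 2.02 CPM at 2 dpf had a correlation of at least 0.9 with rank 7 over the 6 libraries. None of them varied 4-fold or more between these libraries. In edgeR's test of the −/− libraries 20 of them were lower at 5 dpf, and their median WT ratio was −0.11.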
